A study of Mus musculus with 12 samples.

Results

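The genes described here are the ubiquitin-like modifiers *Isg15* and *Ubd* and 6 genes for enzymes that attach, remove or accompany them, *Uba7*, *Ube2l6*, *Herc6*, *Usp18*, *Rnf213* and *Rnf125*. They were chosen by symbol, and all 8 were found among the 45563 symbols used and were among the 18081 symbols tested. RNA was sequenced from primary oligodendrocyte precursor cells (OPCs) in 12 libraries, 3 in each of 4 groups, with about 26890000 to 30340000 read pairs each. The WT NS group held OPCs from C57BL/6 (C57BL/6J in the methods) wild type pups that were not stimulated, and the WT St group held such cells stimulated for 3 h with TNF, IFNγ and IL1β at 25 ng/mL each. The TNFR2-/- NS and TNFR2-/- St groups were the same conditions in OPCs from pups with a germline deletion of TNFR2, also labelled C57BL/6. By the deletion label every cell of these cultures, and not the OPCs alone, lacked the receptor. All cells came from the cortices of pups at postnatal days 2 to 5, were isolated with anti-PDGFRα beads, grew with PDGF-AA and FGF2, and were stimulated after 3 days in vitro. The NS cells received PBS.

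ISG15 and FAT10, the product of *Ubd*, are small proteins with ubiquitin folds that are joined to other proteins. As for ubiquitin, an activating enzyme (E1), a conjugating enzyme (E2) and a ligase (E3) act in turn, and for ISG15 in the mouse these are UBA7, UBE2L6 and HERC6, while USP18 takes ISG15 off again. The genes of the ISG15 cycle are known as interferon-stimulated genes, and FAT10 is known to be induced by TNF and IFNγ together. RNF213 and RNF125 are ubiquitin ligases of the RING class, the first a giant protein with ATPase domains and the second a ligase for the RNA sensors RIG-I and MDA5.

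Promoter sequences from RefSeq (GRCm38.p6) were at hand for *Isg15*, *Ubd*, *Uba7*, *Ube2l6*, *Herc6* and *Rnf213*, 6 of the 8 genes, as 300 bases around the start of transcription. They were searched on both strands for the core of the interferon-stimulated response element, GAAANNGAAA, for the STAT-binding GAS letters TTCNNNGAA, and for the NF-κB-like letters GGGNNTTTCC. These letters were present in 3.44%, 8.30% and 1.63% of all 32851 RefSeq promoters. The *Isg15* promoter held 3 overlapping matches to the first, and the *Ubd* promoter held 1 match to the NF-κB-like letters, while the other 4 promoters held none of the 3. For *Rnf213* that holds for the RefSeq start only, since its window (chromosome 11, 119389849 to 119390148) lies upstream of the GENCODE start at 119393100. The 150 bases before the start of these 2 genes are shown because they are the genes with matches and code for the 2 modifiers. Capitals mark the matches, which end 57 bases before the start of *Isg15* and 6 bases before that of *Ubd*. A match says only that the letters are there.
*Isg15*, chr4:156200819-156200968, minus strand: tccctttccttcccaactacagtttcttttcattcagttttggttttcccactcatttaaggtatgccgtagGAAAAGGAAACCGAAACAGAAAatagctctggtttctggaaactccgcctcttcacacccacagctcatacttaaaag
*Ubd*, chr17:37193742-37193891, plus strand: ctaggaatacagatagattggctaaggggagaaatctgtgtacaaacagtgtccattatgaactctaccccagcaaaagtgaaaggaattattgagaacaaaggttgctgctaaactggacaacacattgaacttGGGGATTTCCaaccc

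The groups are named by their labels. The TNFR2 gene *Tnfrsf1b* was read 51 times in all in the 3 WT NS libraries and 311 times in WT St, against 881 and 928 times in the libraries labelled TNFR2-/- NS and TNFR2-/- St. Its reads were therefore more, not fewer, under the deletion label, and the deposited values do not show which exons they cover. The OPC markers *Pdgfra*, *Cspg4*, *Olig1*, *Olig2*, *Sox10*, *Gpr17*, *Ptprz1* and *Lhfpl3* summed to 8575 to 9953 CPM (reads of a gene per 1000000 read pairs of the library) in NS and to 7115 to 8194 in St, lower in every St library than in every NS library. Not all of these OPC markers fell. The group mean of *Sox10* rose from 201 to 309 in WT and from 259 to 331 in TNFR2-/-. That of *Ptprz1* rose in TNFR2-/- (4025 to 4491) and fell in WT (4408 to 3951). The other means fell in both genotypes, as for *Olig2* from 912 to 390 in WT and from 839 to 372 in TNFR2-/-. The microglia markers *Cx3cr1*, *P2ry12*, *Tmem119*, *Aif1*, *Csf1r*, *Ptprc*, *Itgam* and *C1qa* summed to 0.707 to 1.88. The 6 endothelial markers summed to 21.3 to 61.0, and the 6 markers of mature oligodendrocytes to 293 to 853. The 6 neuronal markers summed to 96.0 to 143.9 in NS and 450 to 535 in St, the rise being that of *Tubb3* (38.4 to 70.9 and 384 to 497), and the part of the OPC and neuronal markers' shift in the response of the 8 genes was not tested. In these bulk samples a change in the share of a cell type cannot be told apart from a change in RNA per cell.

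All 8 genes rose with stimulation in WT OPCs and again in TNFR2-/- OPCs, by 3.93-fold (*Ube2l6* in TNFR2-/-) or more, and *Ubd* went from at most 1 read to at least 156 reads per library. A gene was called where limma gave an adjusted p of at most 0.05, the difference was at least 1.5-fold, and the mean was at least 1 FPKM. The 8 genes were called higher in WT St vs WT NS, as were 4.58% of all symbols tested, and in TNFR2-/- St vs TNFR2-/- NS, as were 5.41%. In each genotype every stimulated library lay above every NS library for all 8 genes, which was so for 13.7% of all symbols in WT and 12.7% in TNFR2-/-. The median log2 difference was 2.70 over the 8 genes against -0.06 over all symbols in WT, and 3.34 against -0.11 in TNFR2-/-. The differences are of log2(FPKM + 0.5), and the bases by which the deposited FPKM were divided bear no relation to gene length (5009 for *Isg15*, whose exons span 756, and 52 for *Rnf125*, whose exons span 1677). The added 0.5 FPKM was therefore worth 74.5 reads for *Isg15* and 0.773 for *Rnf125*. It shrank the differences where that worth was large beside the reads of the gene. *Rnf125*, with few reads, was hardly touched (3.12 against 3.13 on recovered reads in WT). For this reason levels are given as CPM, and the limma-voom difference on recovered reads stands beside the main one for *Isg15*, *Ubd*, *Uba7* and *Usp18*, for which it is larger by over 1.

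**Figure D1:**
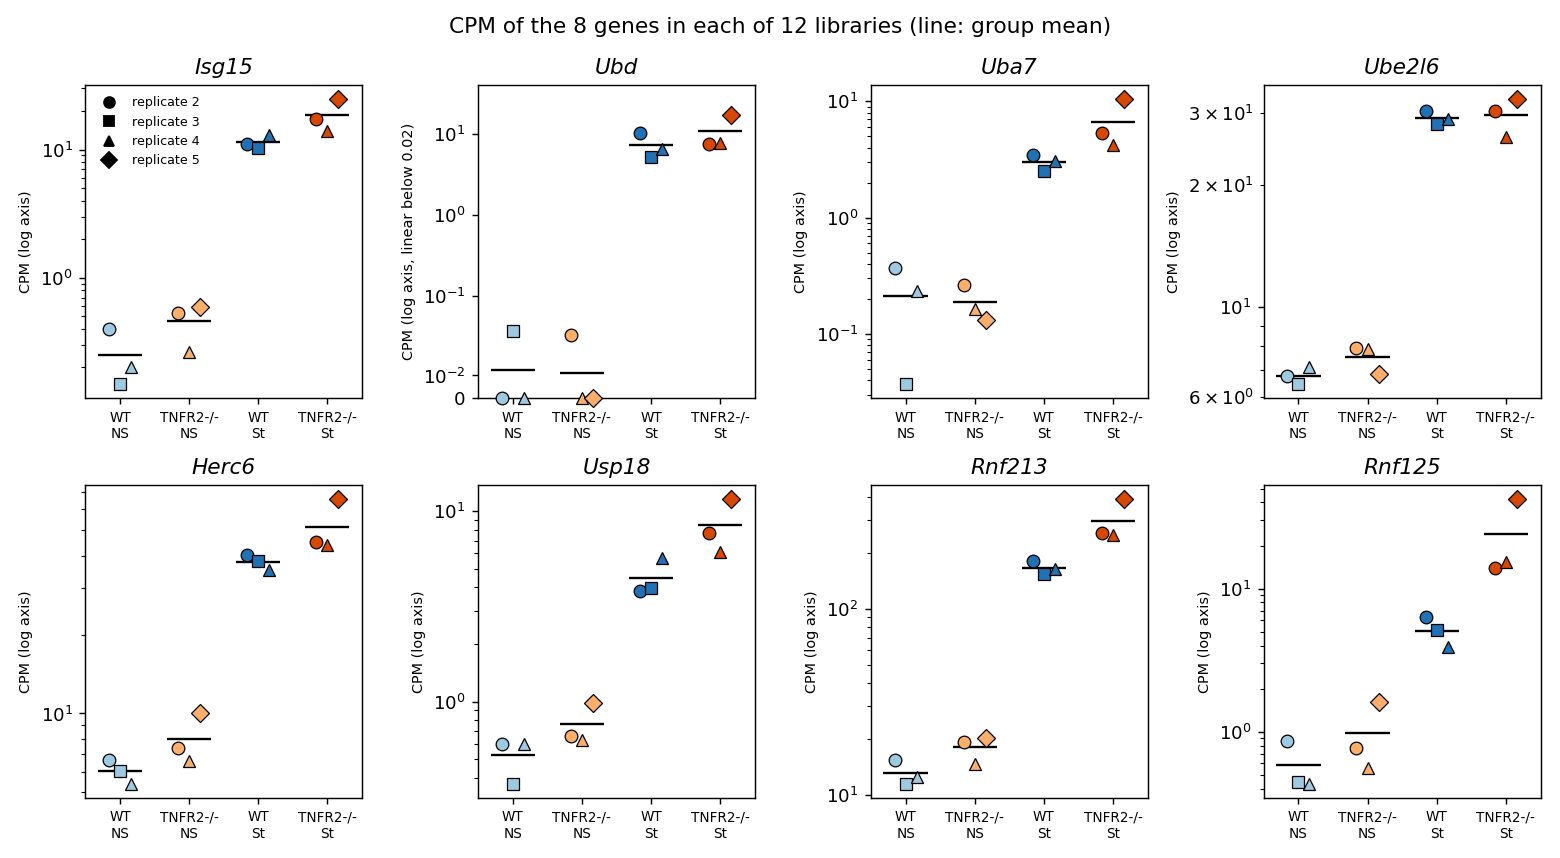
CPM (log axis, for *Ubd* linear below 0.02) of each gene in the 12 libraries, with 1 point per library, shapes for replicate numbers and a line at each group mean. The 6 St points of each gene lie above its 6 NS points, and TNFR2-/- St replicate 5 (diamond) is the highest library for all 8 genes.

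Both modifiers started from few reads, at most 18 in any NS library. *Isg15* (ENSMUSG00000035692) lies on chromosome 4 of GRCm38 at 156199424 to 156200818, on the minus strand. It was at 0.400, 0.149 and 0.200 CPM in WT NS replicates 2, 3 and 4, and at 11.1, 10.2 and 13.0 in WT St. In TNFR2-/- replicates 2, 4 and 5 it was at 0.532, 0.264 and 0.593 in NS and at 17.2, 13.9 and 24.7 in St. The stimulated libraries of each genotype thus lay well apart from the NS ones, and those of TNFR2-/- St lay above all of WT St. The ratio of group means was 45.8 in WT and 40.1 in TNFR2-/-. On the log2 scale *Isg15* rose by 2.33 ± 0.17 SE in WT (adjusted p = 3.65e-06) and by 2.80 ± 0.17 in TNFR2-/- (adjusted p = 7.54e-07). On recovered reads the differences were 5.51 ± 0.55 and 5.31 ± 0.45.

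*Ubd* (ENSMUSG00000035186; chromosome 17, 37193892 to 37196095) had almost no reads before stimulation. Its reads were 0, 1 and 0 in WT NS and 1, 0 and 0 in TNFR2-/- NS. Stimulation brought them to 309, 156 and 194 in WT St and to 228, 231 and 489 in TNFR2-/- St. These are 10.3, 5.20 and 6.45 CPM in WT St and 7.59, 7.64 and 17.0 in TNFR2-/- St, so that the 2 stimulated groups overlapped. With 1 read per NS group the ratio of the summed reads was 635 in WT, with an exact 95% interval of 113.5 to 25110 that covers counting error only, and 967 in TNFR2-/- (173 to 38210). The difference on log2(FPKM + 0.5) was 3.67 ± 0.29 SE in WT (adjusted p = 8.99e-06) and 4.15 ± 0.29 in TNFR2-/- (adjusted p = 2.9e-06), and 8.16 ± 1.27 and 8.70 ± 1.26 on recovered reads.

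The enzymes that load ISG15 started from unlike levels. *Uba7*, the E1 (ENSMUSG00000032596; chromosome 9, 107975505 to 107984060), had 11, 1 and 7 reads in WT NS and 8, 5 and 4 in TNFR2-/- NS. It had 103, 75 and 93 in WT St and 161, 127 and 300 in TNFR2-/- St, or 3.42, 2.50 and 3.09 against 5.36, 4.20 and 10.5 CPM. The stimulated groups did not overlap with each other or with the NS groups, which overlapped. *Uba7* rose by 2.86 ± 0.34 SE on the log2 scale in WT (adjusted p = 0.000177) and by 3.88 ± 0.34 in TNFR2-/- (adjusted p = 1.37e-05). On recovered reads the differences were 4.07 ± 0.72 and 4.97 ± 0.68. Its ratio of means was 14.1 in WT and 35.6 in TNFR2-/-, and these rest on 19 and 17 NS reads in all. Of its annotated exon bases, 3.48% lie in *Gm20661* on the same strand.

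*Ube2l6*, the E2 (ENSMUSG00000027078; chromosome 2, 84798828 to 84810335), was the most abundant of the 8 before stimulation per length of exon and had the smallest ratio of St to NS means. It was at 6.76, 6.47 and 7.11 CPM in WT NS and at 30.5, 28.3 and 29.0 in WT St. In TNFR2-/- it was at 7.94, 7.86 and 6.86 in NS and at 30.4, 26.2 and 32.5 in St. Between genotypes its libraries overlapped in NS and in St. It rose by 1.83 ± 0.10 SE on the log2 scale in WT (4.31-fold, adjusted p = 3.82e-07) and by 1.72 ± 0.10 in TNFR2-/- (3.93-fold, adjusted p = 5.44e-07).

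*Herc6*, the E3 (ENSMUSG00000029798; chromosome 6, 57581000 to 57664632), was at 6.63, 6.03 and 5.41 CPM in WT NS and at 40.4, 38.0 and 35.2 in WT St. In TNFR2-/- it was at 7.41, 6.61 and 10.1 in NS and at 45.2, 43.8 and 65.8 in St. The 3 TNFR2-/- St libraries lay above the 3 of WT St, 2 of them by little. *Herc6* rose by 2.53 ± 0.18 SE on the log2 scale in WT (6.29-fold, adjusted p = 2.93e-06) and by 2.59 ± 0.18 in TNFR2-/- (6.43-fold, adjusted p = 2.13e-06). It shares 13.7% of its exon bases with *Gm45193* on the same strand, and how reads in both were assigned is not given in the sources used here.

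*Usp18*, which removes ISG15 and also holds back signaling at the type I interferon receptor (ENSMUSG00000030107; chromosome 6, 121245906 to 121270917), was at 0.5995, 0.3719 and 0.6006 CPM in WT NS and at 3.82, 3.93 and 5.65 in WT St. In TNFR2-/- it was at 0.664, 0.628 and 0.989 in NS and at 7.69, 6.08 and 11.6 in St. It was the 1 gene of the 8 whose TNFR2-/- libraries lay above the WT ones in NS as well as in St, in NS by a margin of 18 against 19 reads. It rose by 1.76 ± 0.20 SE on the log2 scale in WT (adjusted p = 0.000152) and by 2.32 ± 0.20 in TNFR2-/- (adjusted p = 1.45e-05). On recovered reads these were 3.05 ± 0.41 and 3.42 ± 0.36, and the ratios of means were 8.53 and 11.1.

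*Rnf213* (ENSMUSG00000070327; chromosome 11, 119393100 to 119487418) was at 15.6, 11.6 and 12.6 CPM in WT NS and at 179, 154 and 164 in WT St. In TNFR2-/- it was at 19.3, 14.7 and 20.2 in NS and at 255, 248 and 389 in St. With 4615 to 11153 reads in the stimulated libraries, it is the gene of the 8 for which counting error matters least. It rose by 3.56 ± 0.18 SE on the log2 scale in WT (12.5-fold, adjusted p = 2.67e-07) and by 3.95 ± 0.18 in TNFR2-/- (16.4-fold, adjusted p = 1.02e-07). On the opposite strand *A930037H05Rik* covers 8.74% of its exon bases, and whether strand was used in counting is not given in the sources used here.

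*Rnf125* (ENSMUSG00000033107; chromosome 18, 20944625 to 20983862) was at 0.866, 0.446 and 0.434 CPM in WT NS and at 6.28, 5.10 and 3.89 in WT St. In TNFR2-/- it was at 0.764, 0.562 and 1.61 in NS and at 14.0, 15.4 and 42.4 in St. Replicate 5 was the highest TNFR2-/- library before and after stimulation. *Rnf125* rose by 3.12 ± 0.48 SE on the log2 scale in WT (8.74-fold, adjusted p = 0.00116) and by 4.52 ± 0.48 in TNFR2-/- (24.4-fold, adjusted p = 6.47e-05). Of its sequences of 100 bases, 1.52% also occur in *Gm2996*.

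**Figure D2:**
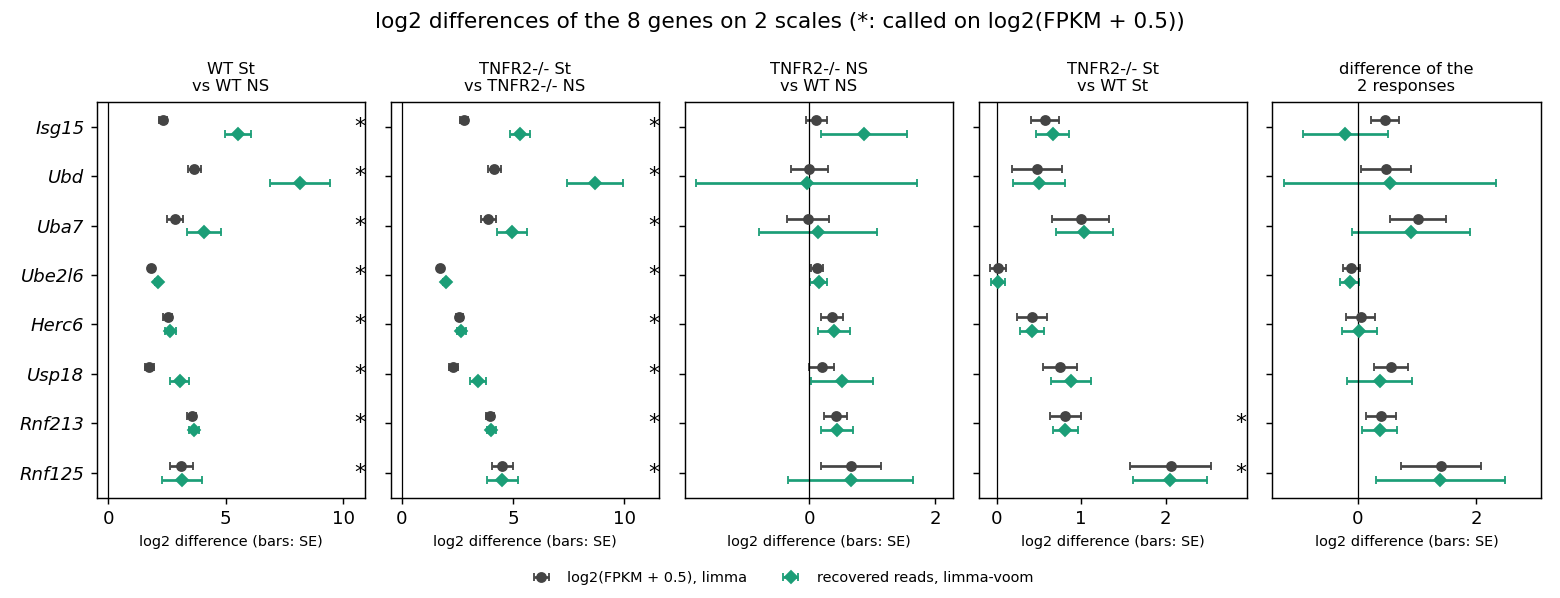
Log2 differences of the 8 genes (points) with standard errors (bars) in 4 comparisons and for the difference between the genotypes' responses, from log2(FPKM + 0.5) and from recovered reads, with a star where a gene was called on the first. For *Isg15* in WT the first scale gives 2.33 and the second 5.51, and in TNFR2-/- St vs WT St *Rnf213* and *Rnf125* have a star.

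Levels were compared between the genes as CPM per kb of annotated exon. In WT NS the order ran from *Ube2l6* at 3.40 ± 0.16 (SD, n = 3) through *Rnf213* (0.783 ± 0.123) and *Herc6* (0.648 ± 0.066), then *Rnf125*, *Isg15* and *Usp18* at 0.347 to 0.188, to *Uba7* at 0.0317 ± 0.0247 and *Ubd* at 0.0133 ± 0.0231. Libraries overlapped between *Rnf213* and *Herc6*, between *Rnf125* and *Isg15*, between *Isg15* and *Usp18*, and between *Uba7* and *Ubd*. In WT St *Isg15* led with 15.1 ± 1.85 and overlapped with *Ube2l6* (14.6 ± 0.56). They were followed by *Rnf213* (9.81 ± 0.77), which overlapped with *Ubd* (7.85 ± 2.84), and then by *Herc6* (4.07 ± 0.28), *Rnf125* (3.03 ± 0.71), *Usp18* (1.60 ± 0.37) and *Uba7* (0.449 ± 0.070), each apart from the next. In TNFR2-/- St the top 5 were *Isg15* (24.6 ± 7.4), *Rnf213* (17.6 ± 4.7), *Ube2l6* (14.9 ± 1.6), *Rnf125* (14.3 ± 9.5) and *Ubd* (11.6 ± 5.8), none of which was apart from the next in order except *Ubd* from *Herc6*. Per length of exon *Uba7* was the lowest of the 8 in both stimulated groups.

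These levels can be set beside the general enzymes of the same steps. *Uba1*, the main E1 for ubiquitin, was at 137 ± 3 CPM per kb in WT NS and 135 ± 4 in WT St, and *Uba6*, the E1 used by FAT10, at 5.65 ± 0.10 and 5.75 ± 0.37. *Ube2l3*, the nearest relative of *Ube2l6*, was at 21.3 ± 1.3 and 20.6 ± 0.6, and *Ube2z*, the E2 that works with UBA6, at 31.0 ± 0.9 and 31.7 ± 1.5. *Ubb*, a ubiquitin gene, was at 222 ± 9 and 248 ± 10, and the HERC ligase *Herc4* at 5.71 ± 0.23 and 5.16 ± 0.12. None of these 6 genes was called in any of the 5 comparisons. After stimulation *Ube2l6* thus came within 1.5 times of *Ube2l3* per kb, and *Uba7* stayed far below *Uba1* and *Uba6*. The nearness depends on the length used, which counts all annotated exons of a gene and not the transcripts in these cells. In CPM, *Ube2l6* was at 29.2 and *Ube2l3* at 120 in WT St.

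**Figure D3:**
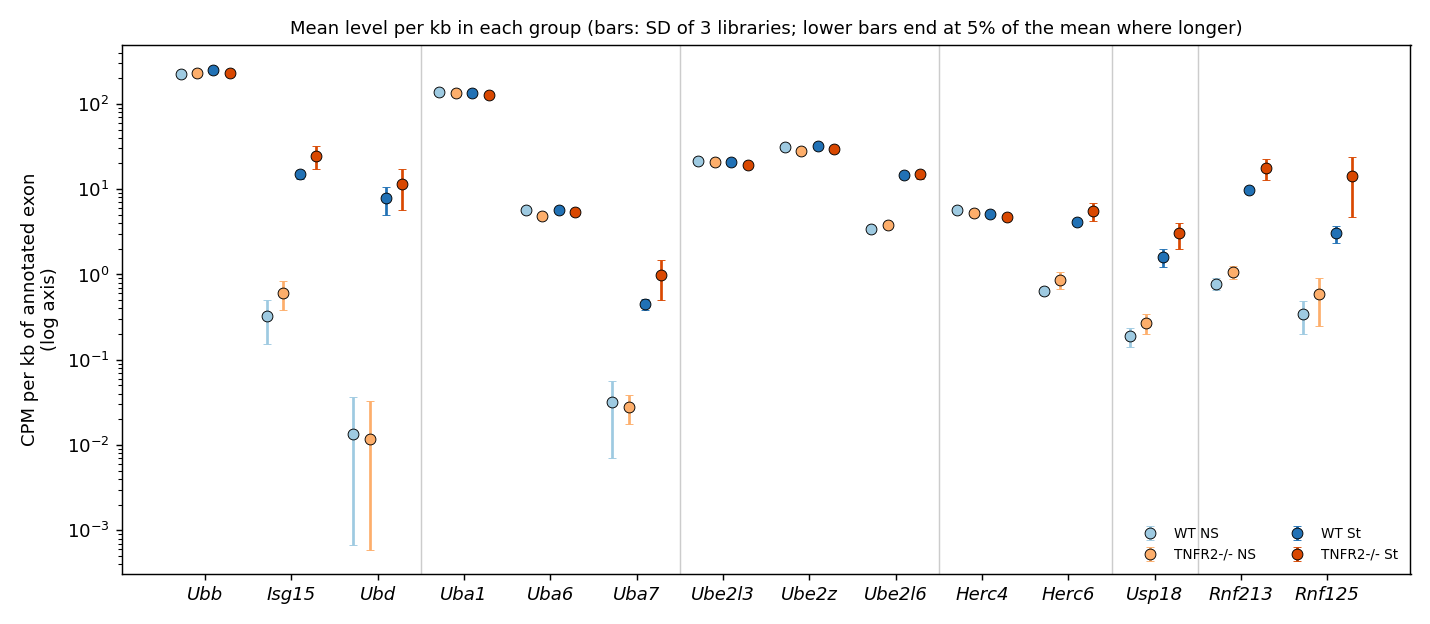
Mean CPM per kb of annotated exon (log axis) in each group, with bars for the SD of 3 libraries, for the 8 genes and the general genes of the same steps. *Ubb*, *Uba1*, *Uba6*, *Ube2l3*, *Ube2z* and *Herc4* are level across the groups, and *Isg15* goes from 0.330 in WT NS to 15.1 in WT St.

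The other ubiquitin-like systems did not pass the test. A list of 33 genes for the modifiers, E1 and E2 of ubiquitin, SUMO, NEDD8, UFM1, URM1 and the autophagy conjugations was tested whole, and 0 of 33 were called in any of the 5 comparisons with limma. Their log2 differences ran from -0.21 to 0.16 in WT St vs WT NS with a median of 0.02, and from -0.39 to 0.16 in TNFR2-/- St vs TNFR2-/- NS with a median of -0.13. Over all symbols the medians were -0.06 and -0.11. By role, the 16 modifiers had medians of 0.04 and -0.13, the 9 E1 genes of -0.02 and -0.07, and the 8 E2 genes of -0.05 and -0.10. The smallest rise among the 8 genes on the same scale was 1.76 (*Usp18*) in WT and 1.72 (*Ube2l6*) in TNFR2-/-.

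**Figure D4:**
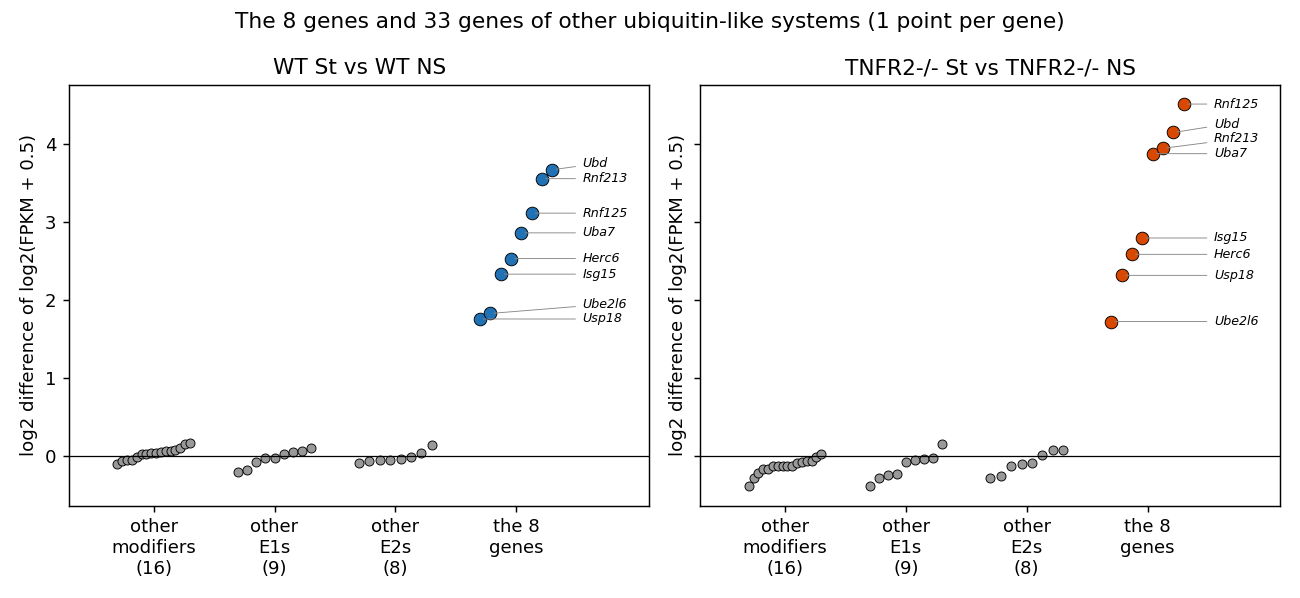
Log2 differences of log2(FPKM + 0.5) between St and NS in each genotype, with 1 point per gene, for 16 modifiers, 9 E1 and 8 E2 genes of other ubiquitin-like systems and for the 8 genes. The 33 grey points lie between -0.39 and 0.16, and the 8 genes lie at 1.72 or higher.

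Without stimulation, none of the 8 genes was called in TNFR2-/- NS vs WT NS, where 1.62% of all symbols were called higher. With limma 1 of the 8, *Rnf213*, had an unadjusted p under 0.05, and limma-voom called 0 as well. *Rnf213* was at 18.1 ± 3.0 (SD, n = 3) CPM in TNFR2-/- NS and 13.2 ± 2.1 in WT NS, and the log2 difference was 0.42 ± 0.18 SE (adjusted p = 0.149). *Herc6* differed by 0.36 ± 0.18 (adjusted p = 0.193) and *Rnf125* by 0.66 ± 0.48 (adjusted p = 0.39). For *Usp18*, the 1 gene without overlap, the difference was 0.19 ± 0.20 (adjusted p = 0.568), and 19.9% of all symbols were higher in TNFR2-/- NS without overlap. The median over the 8 genes was 0.16, against 0.04 over all symbols.

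With stimulation, 2 of the 8 genes were called higher in TNFR2-/- St vs WT St, the 2 RING ligases, against 1.18% of all symbols. *Rnf213* was at 297 ± 79 (SD, n = 3) CPM in TNFR2-/- St and 166 ± 13 in WT St, a log2 difference of 0.81 ± 0.18 SE (adjusted p = 0.0364). *Rnf125* was at 23.9 ± 16.0 and 5.09 ± 1.20, a difference of 2.06 ± 0.48 (adjusted p = 0.0402). Both calls were near the threshold: neither gene was called without the filter on low values, with only the 6 St libraries in the fit, or without any 1 of WT St replicates 2, 3 and 4, TNFR2-/- St replicates 2 and 5, WT NS replicate 4 and TNFR2-/- NS replicate 2. *Rnf125* was not called without WT NS replicate 3 either. No TNFR2-/- St library overlapped with WT St for 6 of the 8 genes, against 15.4% of all symbols, the exceptions being *Ube2l6* and *Ubd*. The 4 others did not pass the test on the main scale, with differences of 0.57 ± 0.17 for *Isg15* (adjusted p = 0.0676), 0.75 ± 0.20 for *Usp18* (adjusted p = 0.055), 0.99 ± 0.34 for *Uba7* (adjusted p = 0.0965) and 0.42 ± 0.18 for *Herc6* (adjusted p = 0.162). *Usp18* passed on recovered reads (0.88 ± 0.24, adjusted p = 0.0446), but not without TNFR2-/- St replicate 5 (0.64 ± 0.20, adjusted p = 0.118). *Ubd* differed by 0.48 ± 0.29 (adjusted p = 0.326) and *Ube2l6* by 0.02 ± 0.10 (adjusted p = 0.936). The median over the 8 genes was 0.66, against 0.00 over all symbols at 2 decimals.

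The size of the genotype difference after stimulation depended on TNFR2-/- St replicate 5. This library was above the mean of replicates 2 and 4 by a factor of 1.15 for *Ube2l6*, 1.48 for *Herc6*, 1.54 for *Rnf213*, 1.59 for *Isg15*, 1.68 for *Usp18*, 2.19 for *Uba7*, 2.24 for *Ubd* and 2.88 for *Rnf125*. The median of this factor was 1.01 over 13284 symbols with a mean of at least 1 CPM in replicates 2 and 4, and 1.11 over 924 symbols that stimulation raised in TNFR2-/-. Without that library neither RING ligase was called on the main scale, with *Rnf213* at 1.52-fold (adjusted p = 0.0981) and *Rnf125* at 2.89-fold (adjusted p = 0.116), and the same 6 genes still did not overlap. On recovered reads, in a fit added after the values were seen, both passed without it, *Rnf213* with 0.61 ± 0.10 (adjusted p = 0.0186) and *Rnf125* with 1.55 ± 0.22 (adjusted p = 0.0097). In NS, replicate 5 was 2.44 times the mean of the other TNFR2-/- libraries for *Rnf125*, 1.53 for *Usp18*, 1.49 for *Isg15*, 1.43 for *Herc6* and 1.19 for *Rnf213*. It was 0.868 times that mean for *Ube2l6* and 0.612 times for *Uba7*, the last on 4 reads against 8 and 5. The ratio was not taken for *Ubd*.

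The sum of the astrocyte markers was also highest in TNFR2-/- replicate 5. The astrocyte markers *Gfap*, *Aqp4*, *Aldh1l1*, *Slc1a2*, *Gja1* and *Aldoc*, all 6 detected, summed to 791 to 943 CPM in WT NS and 790 to 903 in WT St. They summed to 1217 to 2523 in TNFR2-/- NS and 1325 to 2502 in TNFR2-/- St, with replicate 5 the highest in both. *Aldh1l1* was the exception, at 242 in NS and 214 in St of TNFR2-/- replicate 2, against 222 and 192 in replicate 5. The OPC marker *Gpr17* was highest in replicate 5 as well, at 1204 in NS and 649 in St, against 90.7 to 420 in the other libraries. *Gfap*, the intermediate filament of astrocytes, was at 346 CPM in TNFR2-/- NS replicate 5 and 349 in TNFR2-/- St replicate 5, and at 9.34 to 63.7 in the other 10 libraries. The sum of the 7 mural and fibroblast markers was lowest in replicate 5, at 108 in NS and 75.8 in St, against 213 to 872 in the others. It was mostly *Acta2*, at 99.9 CPM in NS and 69.9 in St of replicate 5. *Col1a1* was lowest there too, and the other markers were not lowest in both. *Rgs5* in NS (1.22) and *Lum* in St (0.836) were higher there than in any other library. The part of these cells in the levels of the 8 genes was not tested.

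Responses were also read within numbered cultures, since the NS and St libraries of 1 genotype with the same number varied together. For *Rnf125* the fold of St over NS was 7.26, 11.4 and 8.96 in WT cultures 2, 3 and 4, and 18.3, 27.4 and 26.2 in TNFR2-/- cultures 2, 4 and 5. All 3 TNFR2-/- folds thus lay above the 3 WT folds, with or without culture 5. They rest on 12 to 49 NS reads per library, and the share of all symbols with folds apart in this way was not computed. *Rnf213* had folds of 11.5 to 13.3 in WT and 13.2 to 19.2 in TNFR2-/-, which overlapped. The *Herc6* response hardly varied, with 6.09 to 6.50 in WT and 6.10 to 6.63 in TNFR2-/-. *Ube2l6* had 4.08 to 4.50 and 3.33 to 4.74, and *Usp18* 6.38 to 10.6 and 9.69 to 11.7. *Isg15* had 27.7 to 68.7 and 32.3 to 52.4, and *Uba7* 9.35 to 67.2 and 20.2 to 79.3, wide ranges that rest on as few as 4 and 1 NS reads. Culture 5 had the highest TNFR2-/- fold for *Uba7*, *Ube2l6*, *Rnf213* and *Usp18*, for *Usp18* by little (11.7 against 11.6 in culture 2), and lay between the other TNFR2-/- cultures for *Herc6*, *Isg15* and *Rnf125*.

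**Figure D5:**
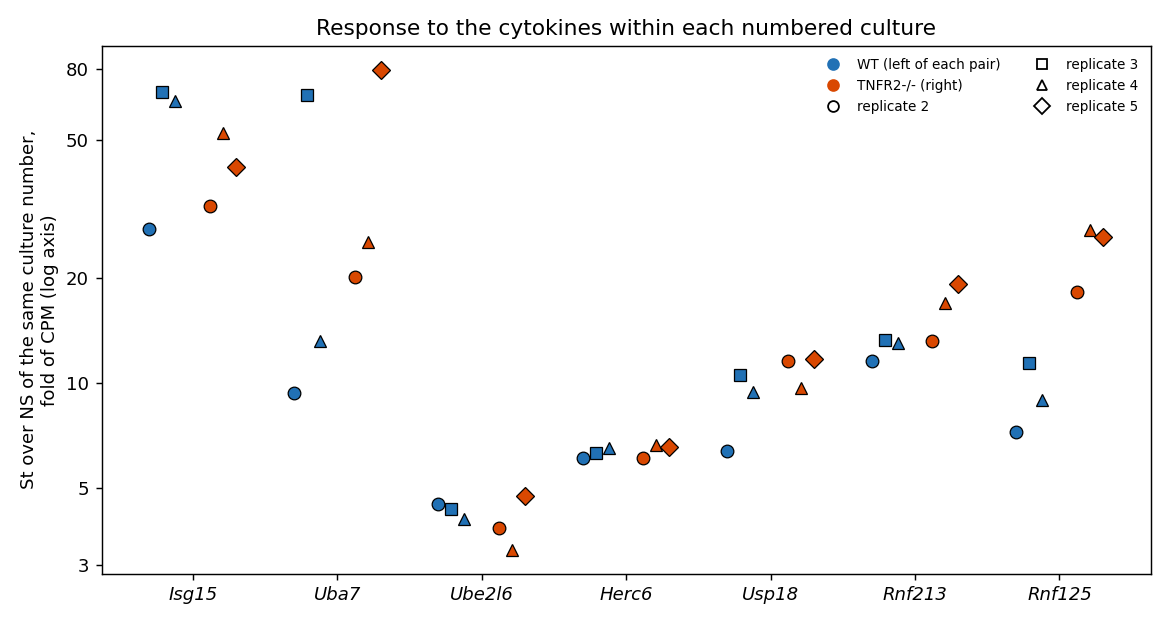
Fold of CPM in St over NS of the same culture number (log axis), with 1 point per culture, WT left and TNFR2-/- right, for 7 genes (*Ubd* is left out because 4 of 6 NS libraries had no read). The TNFR2-/- folds of *Rnf125*, 18.3 to 27.4, lie above the WT folds, 7.26 to 11.4, while those of *Herc6* lie between 6.09 and 6.63 in both genotypes.

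The difference between the responses of the genotypes was tested as an interaction. On the main scale 0 of the 8 genes was called and 0 had an unadjusted p under 0.05, limma-voom called 0 as well, and 0.00553% of all symbols were called higher. *Rnf125* had a difference of 1.40 ± 0.68 SE on the log2 scale (adjusted p = 0.645), *Uba7* of 1.02 ± 0.47 (adjusted p = 0.638), and the others of -0.10 to 0.56. With a block for each numbered culture within genotype the value for *Rnf125* was 1.40 ± 0.21 (adjusted p = 0.0968). With that block on recovered reads, an alternative added after the values were seen, *Rnf125* was the 1 gene of the 8 to pass (1.49 ± 0.29, adjusted p = 0.0148). In that fit 162 of all symbols were called for the interaction, against 1 in the main fit. With 3 cultures a side, the smallest 2-sided p that an exact permutation test of 1 gene can give is 0.1.

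Partners of these proteins showed which other parts of the pathway moved. Of 18 tested genes for partners of ISG15, USP18 and FAT10, 4 rose and 1 fell in each genotype, and none was called between genotypes. The 4 were *Trim25*, an E3 that can be modified by ISG15 (2.10 ± 0.15 SE in WT, adjusted p = 5.04e-06), *Nub1*, which brings FAT10 to the proteasome (1.12 ± 0.09, adjusted p = 7.72e-06), and *Stat2* (3.63 ± 0.11, adjusted p = 7.43e-09) and *Ifnar2* (1.40 ± 0.07, adjusted p = 2.12e-07), through which USP18 acts on the receptor. The 1 that fell was the ubiquitin protease *Usp2* (-0.88 ± 0.13, adjusted p = 0.000716). In TNFR2-/- the same 4 rose by 2.07, 1.11, 3.51 and 1.11, and *Usp2* fell by 1.28. Of the HERC genes *Herc6* was called in both genotypes and *Herc1*, *Herc2*, *Herc3* and *Herc4* in neither, *Herc4* with -0.14 ± 0.05 in WT (adjusted p = 0.0783). In TNFR2-/- *Herc1* (0.24 ± 0.07, adjusted p = 0.0374) and *Herc4* (-0.16 ± 0.05, adjusted p = 0.0384) passed the adjusted p but not the fold threshold. *Herc2* and *Herc3* passed neither there.

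For RNF125, 7 genes for related ligases and substrates were read. The sensors *Ddx58* (RIG-I) and *Ifih1* (MDA5) rose in WT by 2.77 ± 0.15 SE (adjusted p = 4.16e-07) and 1.33 ± 0.20 (adjusted p = 0.000958), the kinase *Jak1* by 1.22 ± 0.06 (adjusted p = 2.3e-07) and the related ligase *Rnf114* by 1.04 ± 0.09 (adjusted p = 1.94e-05). These 4 rose in TNFR2-/- as well, by 2.78, 1.51, 1.13 and 1.01. The adaptor *Mavs* and the ligases *Rnf138* and *Rnf166* were not called, with -0.30, -0.16 and -0.04 in WT. None of the 7 was called between genotypes in St, where the sensor *Ddx58* differed by 0.38 ± 0.15 (adjusted p = 0.139) and *Rnf125* itself by 2.06.

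The signaling genes upstream of interferon-stimulated genes rose in both genotypes, with 9 of 12 tested called higher in each. They included *Irf9* (2.98 ± 0.13 SE in WT, adjusted p = 9.6e-08) and *Irf1* (7.28 ± 0.13, adjusted p = 1.25e-10), the last an IFNγ-responsive transcription factor that went from 7.55 to 1168 CPM. Between genotypes in St 1 of the 12 was called, *Irf7*, a transcription factor for type I interferon genes, at 7.49 ± 2.27 (SD, n = 3) against 3.93 ± 0.66 CPM (0.87 ± 0.21 SE on the log2 scale, adjusted p = 0.0458). *Stat2* and *Irf9* differed by -0.08 and 0.01 there. The *Irf7* call was near the threshold, with 169 to 287 reads per library in TNFR2-/- St and 96 to 135 in WT St. Without TNFR2-/- St replicate 5, 73 of all symbols were called in TNFR2-/- St vs WT St, against 325 in the main fit. Whether *Irf7* was among the 73 was not examined. In NS *Irf1* alone of the 12 was called, at 11.8 ± 1.1 in TNFR2-/- and 7.55 ± 1.5 in WT (0.66 ± 0.13, adjusted p = 0.0188). The list held 13 genes, of which *Ifnb1* did not pass the filter on low values and was not tested. It had 0 reads in every NS library, 5 to 9 in the WT St libraries and 7 to 13 in those of TNFR2-/- St.

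The symbols whose pattern was nearest to each gene were found by Pearson's r over the 12 libraries on the log2 scale, where the shared rise with stimulation makes many r high. *Isg15* was nearest to *Fam26f* and *Cxcl9* (0.997 each), *Usp18* to *Ifi35* (0.994) and *Gm12188* (0.992), and *Uba7* to *Ifi35* (0.994) and *Erap1* (0.992). *Ube2l6* was nearest to *Psmb8*, an immunoproteasome subunit (0.998), and to *B2m*, the light chain of MHC-I (0.997). *Herc6* was nearest to *Ddx58* and *Parp10* (0.998 each), *Rnf213* to *Gbp7* and *Parp10* (0.998 each), *Ubd* to *Madcam1* (0.999) and *Cd40* (0.998), and *Rnf125* to *Eif2ak2* (0.994) and *Timp3* (0.991). Among the 8 genes r ran from 0.903, between *Ube2l6* and *Rnf125*, to 0.996.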

How the data were processed

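Per the labels and the methods, RNA of 12 OPC libraries was sequenced as read pairs, trimmed with Trim Galore, aligned to GRCm38 and counted with STAR, and the authors used EdgeR for their own calls. The deposited values are FPKM by the authors in 2 tables, NS and St. Of 45792 entries, 229 share a symbol and were left out. All columns of values were used.

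Whole reads were recovered from the FPKM for 99.992% of 26636 symbols (tolerance 0.05 read). Tests used limma 3.58.1 (R 4.3.3), fitted to log2(FPKM + 0.5) (4 group means, trend, mean of at least 0.1 FPKM, Benjamini-Hochberg adjustment), and the code was tested on simulated data. The low-value filter was passed by all 8 genes. Positions are from GENCODE M21. The 8 genes, the gene lists and the tests were chosen with earlier results of these data known, and the 2 nearest symbols per gene were taken by r. Named from the lists were the general genes of the same steps, the RNF125-related genes and called genes, of which 1 is counted in its list but not reported here by name. The study's legends speak of 3 independent experiments, but the sources used here do not name separate animals for same-group libraries, so p-values measure the spread between these libraries. Deviations from group means over 13554 genes correlated at 0.338 to 0.649 in the 6 same-numbered NS and St pairs of 1 genotype, and at -0.08 to 0.20 across genotypes, so numbers were taken as cultures within genotype only.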

Additional observations from a re-analysis of the deposited data

How the results depend on the processing

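For the 2 comparisons of St with NS, all 8 genes were called under each of the 29 alternatives run. In TNFR2-/- St vs WT St the main count of 2 (*Rnf213* and *Rnf125*) became 0 without the filter on low values and 0 with only the 6 libraries compared, and ranged from 0 to 4 when 1 library was left out. It was 0 without WT NS replicate 4, TNFR2-/- NS replicate 2, WT St replicate 2, 3 or 4, or TNFR2-/- St replicate 2 or 5, it was 1 without WT NS replicate 3, and it was 4 without TNFR2-/- St replicate 4. Over the alternatives the adjusted p was 0.0147 to 0.13 for *Rnf213* and 0.00945 to 0.125 for *Rnf125*. The count of all symbols called there, 325 in the main fit, ran from 39 to 985, and in TNFR2-/- NS vs WT NS, 524 in the main fit, from 7 to 1964. By the adjusted p alone, 2903 symbols in place of 1361 were called in WT St vs WT NS and 4695 in place of 1824 in TNFR2-/- St vs TNFR2-/- NS. The interaction gained 1 gene, *Rnf125*, on recovered reads with the replicate block within genotype (162 symbols in all against 1 in the main fit). At the main scale the replicate block, by number or within genotype, changed no call among the 8 genes (*Rnf125* interaction adjusted p = 0.108 and 0.0968). A floor of 2 CPM in place of 1 FPKM, added after the values were seen, and the adjusted p alone, changed none either.

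Signs turned only for differences that were not called. In TNFR2-/- NS vs WT NS, *Isg15* (-0.053) and *Usp18* (-0.030) turned with the replicate block. *Uba7* turned with a pseudocount of 0.1 (0.086), library weights (0.027) and recovered reads (0.136, and 0.135 without TNFR2-/- St replicate 5), and ran from -0.329 to 0.218 without 1 library. *Ubd* turned with library weights (0.034) and ran from -0.030 to 0.027 without 1 library. In TNFR2-/- St vs WT St *Ube2l6* turned with quantile normalization (-0.008), library weights (-0.011) and the replicate block (-0.013), and ran from -0.048 to 0.098 without 1 library (-0.052 on recovered reads without TNFR2-/- St replicate 5). In the interaction *Isg15* turned on recovered reads (-0.204), on these with the replicate block within genotype (-0.158) and without TNFR2-/- St replicate 5 (-0.425), and *Herc6* ran from -0.133 to 0.216 without 1 library (-0.161 on recovered reads without TNFR2-/- St replicate 5). The cause was not tested. Depth limits *Ubd* and *Uba7* most, with 2 and 36 NS reads in all.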
